A study of Mus musculus with 10 samples.

Results

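The germline genes Dazl, Ddx4, Mael, Asz1, Mov10l1, Tdrd1, Sycp1, Sycp3, Hormad1 and Tex101 were followed in mouse embryonic stem cell (ESC) lines with different numbers of wild-type Tdg alleles. They were taken by name, as genes known to be kept silent in somatic cells by DNA methylation of their promoters, and make up 10 of the 35427 genes in the data. RNA sequencing was performed on 10 male C57BL/6 ESC lines, each 1 library: 3 wt, 3 Tdg+/- and 4 Tdg-/- lines. The lines came from matings of Tdg+/- animals, were derived on feeder cells, and were then kept without feeders on gelatin in serum-free medium with 2i and LIF, the culture all 3 groups shared. No group was treated, and the Tdg allele is carried by every cell rather than driven by a tissue promoter. Which mating gave which line is not in the labels, and the spread that p values rest on is that between the lines of a genotype.

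Germ cells use the products of these genes to regulate RNA, to silence transposons through piRNAs, and to pair and recombine chromosomes in meiosis. In other cells their promoters, which are rich in CG dinucleotides, carry DNA methylation. Some germline gene promoters also bind the Polycomb complex PRC1.6, which reaches DNA through MGA with MAX at E-boxes and through E2F6. ESCs in 2i are known to have low DNA methylation and to transcribe some germline genes. TDG is a DNA glycosylase that excises the formylated and carboxylated cytosines made by TET enzymes, a step of active demethylation. Neither DNA methylation nor the binding of PRC1.6 was measured in these libraries.

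The promoter is where methylation acts on these genes, and where PRC1.6 acts on some germline genes. Its sequence is therefore shown for the 5 members with most reads. Windows of 300 bases (250 before the start and 50 after it) were taken from RefSeq on build GRCm38.p6. All 10 members had a window, and Hormad1 and Tdrd1, which have several, are described by the first. The 250 bases before the start follow, 5′ to 3′ on the strand of the gene, with capitals for the E-box CACGTG and for the E2F6 core motif TCCCGC or its reverse complement GCGGGA.
Hormad1, chr3:95559427-95559676, plus strand: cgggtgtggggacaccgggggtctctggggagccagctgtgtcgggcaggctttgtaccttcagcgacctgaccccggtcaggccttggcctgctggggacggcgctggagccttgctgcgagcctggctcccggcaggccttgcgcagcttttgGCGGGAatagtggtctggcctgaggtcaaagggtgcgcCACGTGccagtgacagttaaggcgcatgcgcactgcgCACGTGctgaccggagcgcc
Ddx4, chr13:112652311-112652560, minus strand: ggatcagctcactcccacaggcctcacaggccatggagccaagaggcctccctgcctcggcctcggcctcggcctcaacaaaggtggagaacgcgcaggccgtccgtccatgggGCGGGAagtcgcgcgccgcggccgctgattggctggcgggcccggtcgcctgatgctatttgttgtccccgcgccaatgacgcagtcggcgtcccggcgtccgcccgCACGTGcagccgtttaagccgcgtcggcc
Dazl, chr17:50293621-50293870, minus strand: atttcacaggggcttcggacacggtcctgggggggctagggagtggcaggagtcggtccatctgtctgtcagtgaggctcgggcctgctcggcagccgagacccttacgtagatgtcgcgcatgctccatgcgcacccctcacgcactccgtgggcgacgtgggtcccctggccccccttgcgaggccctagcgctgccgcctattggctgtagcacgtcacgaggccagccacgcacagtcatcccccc
Sycp3, chr10:88459337-88459586, plus strand: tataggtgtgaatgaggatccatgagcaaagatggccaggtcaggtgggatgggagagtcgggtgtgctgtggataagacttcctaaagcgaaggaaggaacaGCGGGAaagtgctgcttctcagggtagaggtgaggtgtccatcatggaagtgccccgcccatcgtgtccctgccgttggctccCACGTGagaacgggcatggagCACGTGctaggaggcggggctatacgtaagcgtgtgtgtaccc
Mael, chr1:166238745-166238994, minus strand: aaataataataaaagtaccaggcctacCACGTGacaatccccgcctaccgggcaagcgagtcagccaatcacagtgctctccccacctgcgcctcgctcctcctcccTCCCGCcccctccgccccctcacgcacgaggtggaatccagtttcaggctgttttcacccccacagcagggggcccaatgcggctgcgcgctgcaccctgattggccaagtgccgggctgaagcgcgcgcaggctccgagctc

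All 10 windows held at least 10 CG dinucleotides, as did 43.5% of the 32851 promoter windows of the table. Their counts went from 15 in Sycp3 to 38 in Ddx4, against a median of 7 over all windows. The Ddx4 window had more CG dinucleotides than 95.0% of all windows, and that of Sycp3 more than 65.4%. The E-box, searched on both strands, lay in the windows of 7 members and in 7.15% of all windows. Among windows with at least 10 CG dinucleotides the share was 10.9%. The 7 were Ddx4, Mael, Mov10l1, Tdrd1, Sycp1, Sycp3 and Hormad1, and the windows of Sycp3 and Hormad1 held 2 E-boxes each. The E2F6 core motif, which does not overlap the E-box in these windows, lay in those of 5 members (Ddx4, Mael, Sycp1, Sycp3 and Hormad1), in 19.98% of all windows and in 40.3% of those with at least 10 CG dinucleotides. Both motifs were found in 5 members and in 1.99% of all windows. The windows of Dazl, Asz1 and Tex101 held neither motif, which says only that these letters were not in these windows. Each member is counted once, by its first window, while the shares of all windows count every window of a gene. A later window of Tdrd1, at another start, held only 3 CG dinucleotides and neither motif.

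**Figure D1:**
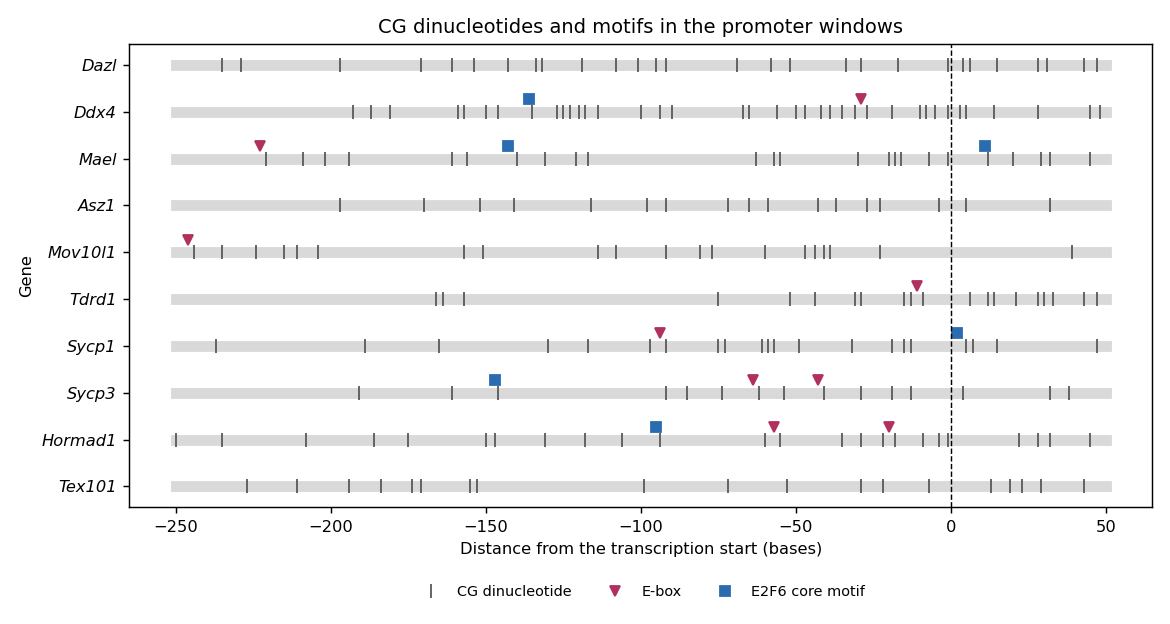
Positions of CG dinucleotides (grey ticks), E-boxes (red triangles) and E2F6 core motifs (blue squares) in the promoter windows of the 10 genes, by distance in bases from the transcription start (dashed line). E-boxes are seen in 7 genes, and the E2F6 core motif in 5 of these 7, while Dazl, Asz1 and Tex101 have neither.

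The libraries held 31095285 to 39916039 reads in genes. Levels below are reads per gene, or CPM, the reads relative to the total of the library after scaling by TMM factors, and TPM, which also accounts for transcript length, where genes are set against each other. The targeted gene followed its labels: Tdg stood at 85.3 to 92.7 CPM in wt lines, 39.99 to 46.6 in Tdg+/- lines and 7.71 to 10.6 in Tdg-/- lines. All 10 naive pluripotency markers tested (Pou5f1, Nanog and others) were above 1 CPM in every line, while 10 markers of 2-cell-like cells summed to at most 0.0890 CPM and 10 of spermatids to at most 0.293 CPM in any line. The feeder fibroblast marker Col1a1 ranged from 45 to 329 reads. On chromosome 16, genes averaging 5 CPM or more were shifted up in wt line 1 (median log2 difference from all lines 0.38), as were those on chromosome 11 in the Tdg+/- lines (0.18 to 0.41). No member lies on either chromosome.

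Per length, Hormad1 was the most abundant member, followed by Sycp3, Ddx4, Dazl and Mael. Mean TPM over the 10 lines was 36.7 for Hormad1, which put it above 86.8% of the protein-coding genes, 8.70 for Sycp3, 5.08 for Ddx4, 4.26 for Dazl and 2.31 for Mael. Sycp1 (0.706), Mov10l1 (0.309), Asz1 (0.133), Tex101 (0.114) and Tdrd1 (0.0807) were below 1 TPM on average. The ranges over lines overlapped between each gene and the next in this order, but such ranges do not compare genes within a line. Within every line, Mael stood above Sycp1, Sycp1 above Mov10l1 and Mov10l1 above Asz1. In wt line 3 Mov10l1 was only narrowly above Asz1, at 0.400 against 0.306 TPM. Asz1 had 9 reads there, and 3.9 of the Mov10l1 reads were of a short transcript with a retained intron. The other neighbours changed places in at least some line. The order by median TPM was the same. In all, 8 members reached 20 reads in some line and were tested, while Asz1 and Tex101 never did.

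The clearest pattern among the members was not between genotypes. The line labelled wt line 1 had the highest level of 7 of the 8 tested members, all but Hormad1, where 14.6% of all 14105 genes tested across the 10 lines were highest in that line. In 6 of the 8 (Ddx4, Mael, Mov10l1, Tdrd1, Sycp1 and Sycp3) it stood at least 2-fold above the median of the other 9 lines, as 3.37% of all tested genes did. In each of the other 9 lines at most 1 tested member did. The 6 genes are also the tested members that have an E-box, apart from Hormad1, which has 2 and did not share the pattern. Dazl is the only tested member without an E-box, too few for a comparison, and a link of the motif to the pattern was not tested. This line and this fold were singled out after the values were seen, and since Tdrd1 passed the minimum of 20 reads only through wt line 1 and Tdg-/- line 3, its height in wt line 1 is in part fixed by the filter.

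**Figure D2:**
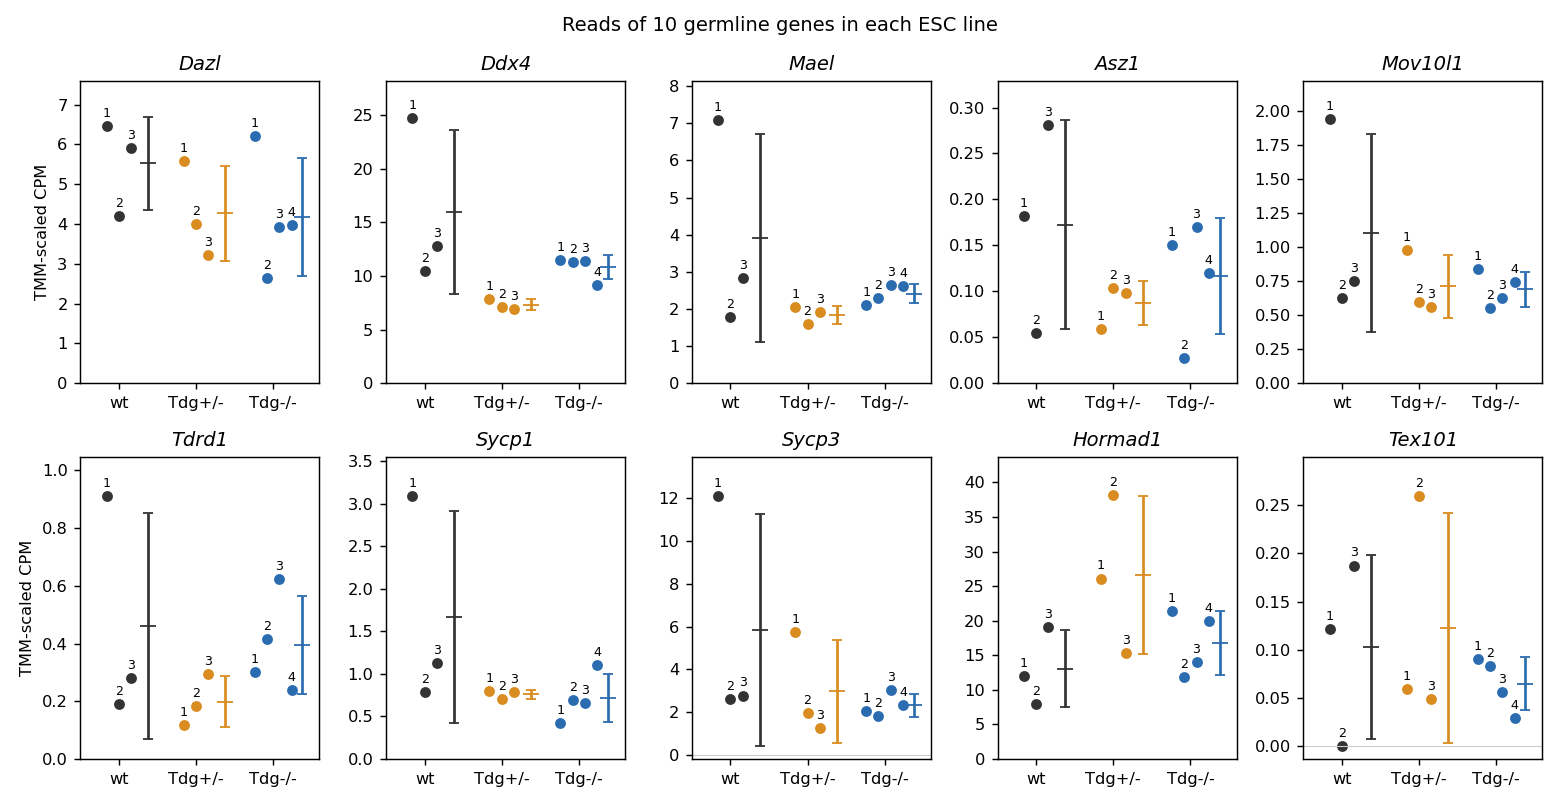
Level of each of the 10 genes in each ESC line (points, numbered by line) in TMM-scaled CPM, by genotype, with the mean and SD of each genotype (bars). Line 1 of the wt lines stands above the other lines for Ddx4, Mael, Mov10l1, Tdrd1, Sycp1 and Sycp3, while Hormad1 reaches its highest level of 38.2 CPM in Tdg+/- line 2.

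Of the germline RNA-binding proteins, Ddx4, an RNA helicase of germ granules, was the only member with a called difference between genotypes. Its level was 24.7, 10.5 and 12.8 CPM in wt lines 1 to 3, 7.86, 7.14 and 6.89 in Tdg+/- lines 1 to 3, and 11.5, 11.3, 11.4 and 9.14 in Tdg-/- lines 1 to 4. All 3 Tdg+/- lines lay below all 7 other lines, a position that 4.2% of all tested genes took. The level was thus 15.98 ± 7.63 CPM in wt (SD, n = 3), 7.30 ± 0.505 in Tdg+/- (SD, n = 3) and 10.8 ± 1.13 in Tdg-/- lines (SD, n = 4). Ddx4 was higher in Tdg-/- than in Tdg+/- lines by a log2 of 0.57 (SE 0.14, adjusted p = 0.0435, edgeR quasi-likelihood test). The adjusted p lay close to the threshold, and the call was lost without Tdg+/- line 2 or 3 or Tdg-/- line 2, 3 or 4 (adjusted p 0.0731 to 0.145) and with the replicate number as a block (log2 0.64, adjusted p = 0.16). Against wt, Ddx4 was at a log2 of -1.15 in Tdg+/- (SE 0.30, adjusted p = 0.132), and at -0.67 without wt line 1 (SE 0.16, adjusted p = 0.0809).

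Dazl, which binds messenger RNAs in germ cells and promotes their translation, stood less far apart in wt line 1. Its level was 6.46, 4.21 and 5.90 CPM in wt lines 1 to 3, 5.58, 4.0 and 3.22 in Tdg+/- lines 1 to 3, and 6.21, 2.63, 3.91 and 3.97 in Tdg-/- lines 1 to 4. Wt line 1 was the highest, just above Tdg-/- line 1, and the 3 genotypes overlapped. Dazl was at a log2 of -0.39 in both Tdg+/- (SE 0.27, adjusted p = 0.496) and Tdg-/- lines (SE 0.28, adjusted p = 0.445) against wt, and no call was made.

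Of the members grouped here under the piRNA pathway (Mael, Mov10l1, Tdrd1 and Asz1), Mael had the most reads. This pathway silences transposons in the male germ line. Mael, a germ granule protein required for piRNA function, had 234, 66 and 91 reads in wt lines 1 to 3, 69, 61 and 78 in Tdg+/- lines and 70, 83, 93 and 88 in Tdg-/- lines 1 to 4. Line 1 of the wt lines was 2.5 times above the next line in CPM, and the remaining 9 lines spanned 1.58 to 2.84 CPM. The 4 Tdg-/- lines (2.10 to 2.64 CPM) lay above the 3 Tdg+/- lines (1.58 to 2.05 CPM), where 24.6% of all tested genes had groups that did not overlap, and the difference of 0.38 log2 was not called (SE 0.20, adjusted p = 0.194).

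Mov10l1, the helicase that binds piRNA precursors, had 64, 23 and 24 reads in wt lines 1 to 3, 33, 23 and 23 in Tdg+/- lines and 28, 20, 22 and 25 in Tdg-/- lines 1 to 4. Tdrd1, a Tudor domain scaffold that binds PIWI proteins, had 30, 7 and 9 reads in wt lines, 4, 7 and 12 in Tdg+/- lines and 10, 15, 22 and 8 in Tdg-/- lines. For both genes wt line 1 was highest, and counts of this size leave the fold changes wide (SE 0.32 to 0.69 log2). Asz1, a mitochondrial membrane protein of the same pathway, was near the limit of detection, with 6, 2 and 9 reads in wt lines, 2, 4 and 4 in Tdg+/- lines and 5, 1, 6 and 4 in Tdg-/- lines, so that a difference between genotypes was not detectable at this depth.

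The meiotic chromosome genes did not move together. Sycp3, which forms the axial and lateral elements of the synaptonemal complex, had levels of 12.1 CPM in wt line 1 and 2.61 and 2.78 in wt lines 2 and 3, 5.73, 1.95 and 1.25 in Tdg+/- lines 1 to 3, and 2.07, 1.83, 3.03 and 2.33 in Tdg-/- lines 1 to 4. Besides wt line 1 at 5.19 times the median of the other 9 lines, Tdg+/- line 1 stood at a log2 of 1.28 above that median, so that wt and Tdg+/- lines each held 1 high line. Sycp3 is the only member on chromosome 10, the chromosome of Tdg, at 5.8 Mb from it in the GRCm38 annotation. Genes of that chromosome with at least 5 CPM had a median log2 difference from all lines of 0.01 in wt line 1. Across lines it was -0.012 to 0.013 in wt and Tdg+/- lines and -0.04 to 0.004 in Tdg-/- lines. A median over the whole chromosome does not describe the region near Tdg, and a part of that region in the level of Sycp3 was not tested. Sycp1, the transverse filament that zips paired chromosomes, had 102, 29 and 36 reads in wt lines, 27, 27 and 32 in Tdg+/- lines and 14, 25, 23 and 37 in Tdg-/- lines 1 to 4. Its CPM in wt line 1 was 3.96 times the median of the other 9 lines, all of which were at or below 1.12 CPM.

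Hormad1, a HORMA domain protein of unsynapsed meiotic chromosome axes, showed the other pattern. Its level was 12.1, 8.01 and 19.0 CPM in wt lines 1 to 3, 26.1, 38.2 and 15.3 in Tdg+/- lines 1 to 3, and 21.4, 11.8, 14.0 and 19.9 in Tdg-/- lines 1 to 4. Lines 1 and 2 of the Tdg+/- group were the highest of all 10, but Tdg+/- line 3 lay within the wt range. Hormad1 was at a log2 of 1.02 in Tdg+/- against wt lines (SE 0.38, adjusted p = 0.238), and -0.67 in Tdg-/- against Tdg+/- lines (SE 0.30, adjusted p = 0.147), neither of which was called.

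Tex101, a surface protein of testicular germ cells that sperm need to migrate through the oviduct, had 4, 0 and 6 reads in wt lines 1 to 3, 2, 10 and 2 in Tdg+/- lines and 3, 3, 2 and 1 in Tdg-/- lines 1 to 4. The 0 of 35796865 reads in wt line 2 allows a level of up to 0.0838 CPM before TMM scaling (3 reads, counting error only). No difference could be detected in so few reads.

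**Figure D3:**
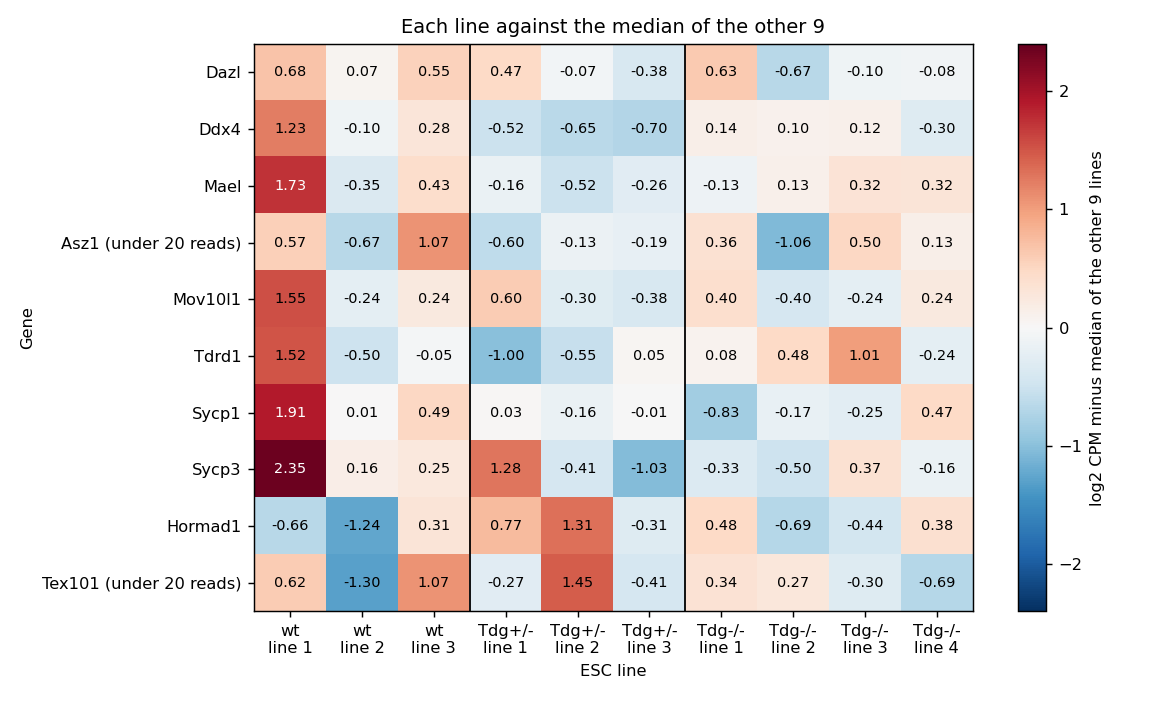
Log2 CPM of each gene in each of the 10 lines minus the median of the other 9 lines (prior count of 2), red above and blue below. The column of wt line 1 reaches 1.23 for Ddx4 and 2.35 for Sycp3, while it is at -0.66 for Hormad1.

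The question the genotypes put to these genes is whether losing 1 or both wild-type Tdg alleles moved them. With edgeR, no member was called in Tdg+/- against wt (0.0288% of 13880 genes called), in Tdg-/- against wt (0.0718% of 13926) or over the number of wild-type alleles (0.0354% of 14105). By unadjusted p under 0.05, 1 member was up and 2 were down in Tdg+/- against wt (17% of all genes in either direction), 0 and 2 in Tdg-/- against wt (15.9%), and 2 slopes were positive and 0 negative over the alleles (14%). In Tdg-/- against Tdg+/- 1 of 8 was called, Ddx4, where 9.03% of 13962 genes were called. DESeq2 called 1 member for Tdg+/- against wt, Ddx4 (5.36% of all genes called), 0 for Tdg-/- against wt (0.668%) and for the trend over alleles (0.362%), and Ddx4 alone for Tdg-/- against Tdg+/- (24%). A fit of Tdg+/- against wt with 3 surrogate variables called 5 of the 8 members, Ddx4, Mael, Sycp1 and Sycp3 as lower and Hormad1 as higher, where it called 24.1% of all genes. The surrogate variables were estimated from the same lines and left only 1 residual degree of freedom for the spread between lines, so little is read from its calls. The comparisons share lines: both with wt use the same 3 wt lines.

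Among the 8 tested members, 7 had negative log2 fold changes against wt in Tdg+/- and in Tdg-/- lines, with medians of -1.05 and -0.61 (medians of all tested genes -0.02 and -0.01). Tdrd1 reached 20 reads in Tdg+/- and wt lines through wt line 1 alone, so its sign in that comparison was fixed by the filter. The medians depended on wt line 1, and 4 of the 7 negative signs in each comparison did not. That line was singled out as the highest for 7 of the 8 tested members. The upward direction of the change on leaving it out was thus set beforehand, and only its size is described. Without that line the median of 7 members was -0.25 in Tdg+/- against wt (all genes 0.01), with 4 negative and 3 positive values, since Tdrd1 no longer had 20 reads in any line. In Tdg-/- against wt the median of 8 members was then -0.03, with 4 negative and 4 positive values. Sycp3 went from -1.32 (SE 0.50) to -0.20 (SE 0.24) in this comparison, Sycp1 from -1.20 (SE 0.49) to -0.39 (SE 0.41), Mael from -0.68 (SE 0.40) to 0.08 (SE 0.25) and Ddx4 from -0.55 (SE 0.27) to -0.09 (SE 0.16). With this line left out, 0 members were called in both comparisons (0.0581% and 0.101% of all genes).

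**Figure D4:**
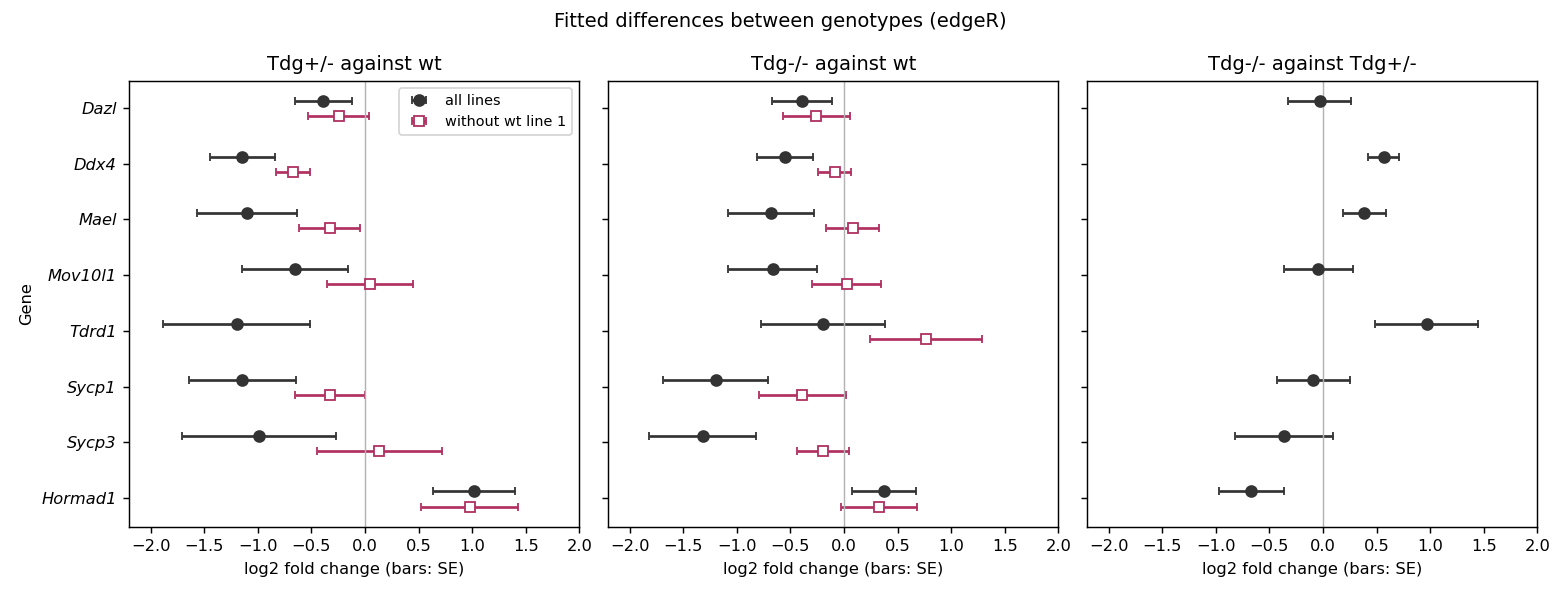
Log2 fold changes of the 8 tested genes in the 3 comparisons of genotypes (points, with bars of 1 SE), with all lines (filled circles) and without wt line 1 (open squares; Tdrd1 then had too few reads in Tdg+/- against wt). Leaving out wt line 1 moves Mael, Mov10l1, Sycp1 and Sycp3 towards 0, while Hormad1 stays at 0.98 in Tdg+/- against wt. For Mael, Mov10l1, Sycp1 and Sycp3 the upward direction was set beforehand by their height in wt line 1.

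A single protein-coding transcript held 96.9% of the Mael reads, 90.3% of those of Tdrd1, 84.7% of Dazl, 84.0% of Hormad1 and 75.5% of Ddx4. It was the leading transcript in 10 of 10 lines for Dazl, Ddx4, Mael and Hormad1. The reads of Sycp1 were assigned to 1 of 2 coding transcripts by line. One led in wt lines 1 and 2 and the 3 Tdg+/- lines and had 0 reads in wt line 3 and the 4 Tdg-/- lines, where the other led, and the other had 0 reads wherever the first led. With 14 to 102 estimated reads per line and no test, nothing is read from this split by genotype. For Sycp3 the leading coding transcript took 57.3% and the next 31.8% of the reads pooled over lines, and the first led in 8 of 10 lines. A transcript with a retained intron held 6.6% of the Mov10l1 reads but, being short, 34.6% of its TPM.

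Other genes of the same pathways were counted from lists drawn from general knowledge. The shares of all genes to set beside the unadjusted counts are 17%, 15.9% and 35.2% in Tdg+/- against wt, Tdg-/- against wt and Tdg-/- against Tdg+/-, and beside the DESeq2 counts 5.36%, 0.668% and 24%. Of 20 other piRNA pathway genes 15 were tested, and in Tdg-/- against Tdg+/- lines 1 was called higher and 0 lower (9.03% of all genes called), with a median log2 of 0.25 (all genes -0.02). The called gene was Rnf17, a Tudor domain protein, at a log2 of 0.48 (SE 0.12, adjusted p = 0.041). None of the 15 was called against wt by edgeR, with 0 up and 4 down in Tdg+/- and 1 up and 1 down in Tdg-/- lines by unadjusted p under 0.05. DESeq2 called 0 up and 3 down in Tdg+/-, and 0 in Tdg-/- lines. The 4 genes with the smallest p were Rnf17, Tex15, Piwil2 and Stk31, and their log2 values in Tdg+/- against wt were -0.50, -0.67, -0.86 and -0.66 (adjusted p 0.122 to 0.248). Piwil2 (a PIWI protein) and Rnf17 had all 3 Tdg+/- lines below the other 7, as 4.2% of all tested genes did and as did Mei4, Mlh3, Syce2, Msh4, D1Pas1, Zfp42, E2f6 and Hdac2 of the lists that follow. Rec8, Kit and L3mbtl2 of those lists had all 3 Tdg+/- lines above the other 7, a position whose share over all genes was not computed. The summed level of the 20 genes was 395 to 479 CPM in Tdg+/-, 504 to 558 in Tdg-/- and 510.5 to 598 in wt lines. Of this sum Rnf17 alone made 162 to 284 CPM. In wt line 1 none of the 15 stood 2-fold above the median of the other lines. Their median log2 difference there was still 0.435, the highest of any line (-0.189 to 0.136 in the others). Single genes ran from -0.983 in Piwil1 to 0.949 in Tdrd5 and 0.974 in Tdrkh, the last with at least 20 reads in only 2 lines.

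Of 34 other meiotic chromosome genes 31 were matched and 24 tested in Tdg-/- against Tdg+/- lines. Of the 24, 3 were called higher and 1 lower (median log2 0.02), where 9.03% of all genes were called. Mlh3, a mismatch repair protein of crossovers, was at 0.59 (SE 0.10, adjusted p = 0.025), Mei4, needed for meiotic double-strand breaks, at 1.10 (SE 0.29, adjusted p = 0.0468) and Syce2, a central element protein, at 0.42 (SE 0.11, adjusted p = 0.0488). Rec8, the meiotic cohesin, was the lower one, at -0.67 (SE 0.18, adjusted p = 0.0488). Neither comparison with wt had a call by edgeR among the 23 and 22 tested, with 5 up and 2 down by unadjusted p under 0.05 in Tdg+/- and 4 and 0 in Tdg-/- lines. DESeq2 called 2 up and 1 down, and 0. In wt line 1, 1 of the 24, Majin, was at least 2-fold below the median of the other lines, and only 1, Tex11, was at least 2-fold above. In Tdg+/- line 2, 4 of the 24 were (Hormad2, Smc1b, Meiob and Majin, where 2.28% of all tested genes were). Of these Meiob reached 20 reads in that line alone, and Majin in 2 lines, that one included, so that the filter in part fixed their height there. Hormad2 lies on chromosome 11, which was shifted up in the Tdg+/- lines.

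A further list held 24 germline genes reported to depend on promoter methylation. It shares Piwil2, Stk31, Tdrkh and Tdrd9 with the piRNA list, Brdt with the meiotic list, and Sohlh2 and Figla with the germline regulators below. Counts of these lists are therefore not independent. Of these 23 were matched and 16 or 17 tested, and none was called in any comparison of genotypes by edgeR. By unadjusted p under 0.05, 2 were up and 6 down in Tdg+/- against wt lines, 2 and 1 in Tdg-/- against wt, and 7 and 1 in Tdg-/- against Tdg+/-. DESeq2 called 1 up and 2 down, 0, and 5 up and 0 down. The 4 with the smallest p were Tuba3a, Piwil2, D1Pas1 and Rpl10l, at log2 values of 1.70, -0.86, -1.50 and -1.29 in Tdg+/- against wt (adjusted p 0.129 to 0.251). In this list 5 of 17 genes stood at least 2-fold above the median of the other lines in wt line 1. Of these Taf7l reached 20 reads in that line alone, so that its height there was fixed by the filter, and Slc25a31 in that line and 1 other. The other 3 were Rpl10l (37.8 CPM against 6.55 to 19.7 in the other 9 lines), D1Pas1 (8.95 against 1.43 to 4.44) and Sohlh2 (7.13 against 1.07 to 3.34). In Tdg+/- line 2, 4 of the 17 did, of which Pdha2 reached 20 reads in that line alone, and in each of the other lines at most 1. Tex19.1 and Tex19.2 of this list, both highest in Tdg+/- line 2, lie on chromosome 11, which was shifted up in the Tdg+/- lines. The shares over all tested genes were 3.37% in wt line 1 and 2.28% in Tdg+/- line 2. Hsf2bp of this list went the other way in wt line 1, at a log2 difference of -1.188 (53.0 CPM against 99.7 to 155 in the other 9 lines). It was the only 1 of the 17 at least 2-fold below there, as 3.13% of all tested genes were.

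Regulators of these genes were also measured. Of 12 tested germline regulators of 19 listed, none was called in any comparison by edgeR, with 1 up and 1 down by unadjusted p under 0.05 in Tdg+/- against wt, 1 and 2 in Tdg-/- against wt and 0 and 4 in Tdg-/- against Tdg+/- lines. DESeq2 called 0, 1 up, and 2 down. The 4 with the smallest p were Dnd1, Dppa3, Kit and Tfap2c. Dppa3, which acts on DNA methylation in oocytes and zygotes, was at 125 CPM in wt line 1 against 38.0 to 115 in the other lines, and at a log2 of -0.90 in Tdg-/- against Tdg+/- (SE 0.25, adjusted p = 0.0506).

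All 20 genes of PRC1.6 and partner repressors were tested, and in Tdg-/- against Tdg+/- lines 1 was called higher and 1 lower, a share near the 9.03% of all genes called. E2f6, whose product binds the motif shown in the promoters above, was higher by 0.69 (SE 0.14, adjusted p = 0.0274), with 21.1 to 23.8 CPM in Tdg+/-, 29.7 to 42.4 in Tdg-/- and 29.0 to 32.1 in wt lines. L3mbtl2, a core subunit, was lower by a log2 of -0.69 (SE 0.16, adjusted p = 0.0369). Atf7ip and Rnf2, next by p, were at -0.39 and 0.34 (adjusted p = 0.055 and 0.067). Against wt, 0 were called by edgeR in either genotype, with 1 up and 2 down in Tdg+/- and 0 and 2 in Tdg-/- lines by unadjusted p under 0.05, while DESeq2 called 1 up and 1 down, and 0. In wt line 1 none of the 20 was 2-fold above or below the median of the other lines, and Mga and Max stood at log2 differences of -0.28 and -0.37.

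Of 11 enzymes that write or remove DNA methylation, 1 was called, again a share near that of all genes. This was Dnmt3l, the cofactor of de novo methyltransferases, which was higher by a log2 of 1.08 in Tdg-/- than in Tdg+/- lines (SE 0.27, adjusted p = 0.0436). Its level was 27.5 to 68.1 CPM in Tdg+/-, 72.2 to 116 in Tdg-/- and 44.7 to 82.1 in wt lines, with wt line 1 the lowest of the wt lines. Dnmt1, the maintenance methyltransferase, was at -0.61 in the same comparison (SE 0.20, adjusted p = 0.0744), Tet1 at -0.35 (adjusted p = 0.117) and Tet3 at -0.86 (adjusted p = 0.0614). Against wt, edgeR and DESeq2 called 0 of the 11 in either genotype, with 0 in Tdg+/- and 2 up and 1 down in Tdg-/- lines by unadjusted p under 0.05. The 8 genes of these lists called in Tdg-/- against Tdg+/- lines were all called by DESeq2, but 2 of the 8 were called with the transcript-length offset, and 0 with log2 TPM in limma, with the replicate block, or without Tdg+/- line 2 or 3 or Tdg-/- line 2, 3 or 4. In wt line 1 none of the 11 stood 2-fold apart from the median of the other lines: Dnmt3b was at a log2 difference of 0.64, Dnmt1 at 0.06 and Dnmt3l at -0.73. Of the 12 feeder markers, 9 stood at least 2-fold below the median of the other lines in Tdg+/- line 2, the line with the highest Hormad1, 5 in Tdg-/- line 4, 3 in wt line 1 and 0 in the other 7 lines. None was 2-fold above in wt line 1. Col3a1 was at 1.51 CPM in Tdg+/- line 2, 5.28 in Tdg-/- line 4 and 11.5 to 22.4 in the other 8 lines. The summed level of the 12 was 536 to 670 CPM in wt, 606 to 899 in Tdg+/- and 379 to 536 in Tdg-/- lines, and was carried by Fn1 and Vim, which made 500 and 172 of the 678 CPM in Tdg+/- line 2. No marker of the 12 was at 0 in any line. The part of feeder cells, of chromosome 16 and of these enzymes in the levels of the germline genes was not tested.

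The genes most like each member over the 10 lines were found among 12190 others with a mean of at least 1 CPM, by Pearson's r of log2 CPM, as a description only, since all genes share the same libraries and depth, and for most of these genes the high wt line 1. For Sycp3 they were Ttll1, Fam241a and Zc3h7a (r 0.93 to 0.96), for Mael Serpine2, Il13ra1 and Inpp5f (0.93 to 0.96), and for Sycp1 Slc33a1, Arl13b and Plbd1 (0.91 to 0.94). For Ddx4 they were Atp6v1a, Spp1 and Sox4 (0.95 to 0.97). All 12 were highest in wt line 1, and 3 of them (Zc3h7a, Arl13b and Atp6v1a) lie on chromosome 16. Without wt line 1 the r of Mael with Inpp5f was 0.57, while that of Ddx4 with Spp1 stayed at 0.95. Dazl was most like Suv39h2, Tmc7 and Ampd3 (0.94 to 0.96), with 0.96 for Suv39h2 also without wt line 1, and Hormad1 most like Gm17657, Meioc and Uso1 (0.87 to 0.89). Meioc, a meiotic regulator, lies on chromosome 11, which was shifted up in the Tdg+/- lines.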

How the data were processed

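RNA from 10 ESC lines (3 wt, 3 Tdg+/-, 4 Tdg-/-) was sequenced as stranded total RNA after ribosomal depletion. The authors quantified reads with Salmon 0.8.1 on GRCm39 transcripts and deposited, per transcript, an estimated count that is not normalized. The deposited TPM are those the authors' Salmon run scaled by effective transcript length, so they are relative to each library's total. Effective lengths were used for 1 alternative.

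The estimated counts of a gene's transcripts were added and rounded. Of 116357 transcripts, 98.97% were paired with genes through a GRCm38 annotation, which gave names and chromosomes, and unpaired transcripts (0.472% to 0.499% of reads) were left out. Genes that reached 20 reads in 1 or more of the lines fitted were tested with edgeR 4.0.16 (quasi-likelihood, TMM, R 4.3.3), with Benjamini-Hochberg adjustment over all genes tested and a threshold of 0.05. Each comparison of genotypes was fitted on its own lines, and the trend on all 10. Each SE was obtained from the fold change and its F statistic. Alternatives were RLE size factors, DESeq2 1.42.0, 2 other filters, a transcript-length offset, a replicate block, limma 3.58.1 on log2(TPM + 0.1), 1 fit of all lines, 3 surrogate variables (sva 3.50.0) for Tdg+/- against wt, and each line left out. The scripts were tested on simulated data. No 2 lines of a genotype agreed within sampling noise.

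The members and gene lists were chosen with earlier results of these data known. Named list genes are the up to 4 with the smallest p over the comparisons of genotypes, and others were named after their values were seen. Names that could not be matched were left out. Promoter windows are from RefSeq.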

Additional observations from a re-analysis of the deposited data

Results flagged for a closer look

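The level of Ddx4 in Tdg-/- line 4 was 9.14 CPM, where the other 3 Tdg-/- lines lay between 11.3 and 11.5 CPM. Its gap to the nearest line took 0.895 of the range of the group, above Dixon's 95% critical value for 4 samples. Of the 10 genes this was the only one with such a line in the Tdg-/- group, and chance gives such a gap in about 1 in 20 groups. The groups of 3 lines were too small for this check.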

How the results depend on the processing

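The count of all genes called moved with the method. In Tdg+/- against wt it was 4, and 744 with DESeq2 (1 member, Ddx4), 269 with no filter, 0 with the transcript-length offset, 33 with the replicate block, 13 with log2 TPM, 23 in 1 fit of all lines and 3340 with 3 surrogate variables, which called 5 members (Ddx4, Mael, Sycp1, Sycp3 and Hormad1). In Tdg-/- against wt it was 10, and 93 with DESeq2, 19 with no filter and 5 with the replicate block. In Tdg-/- against Tdg+/- it was 1261, and 3347 with DESeq2, 464 with the transcript-length offset, 7 with the replicate block and 8 with log2 TPM, and Ddx4 was not called (0 members) with these last 3, with no filter or in 1 fit of all lines. For the trend it was 5, and 51 with DESeq2 and 12 with no filter. The log2 TPM scale shifted the median of all genes to -0.23 in Tdg-/- against Tdg+/- and -0.19 in Tdg-/- against wt.

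Leaving out 1 line at a time gave 0 (without wt line 2) to 207 calls (without Tdg+/- line 1) in Tdg+/- against wt, 3 (without Tdg-/- line 4) to 3077 in Tdg-/- against wt and 12 (without Tdg+/- line 3) to 5659 in Tdg-/- against Tdg+/-, both highest values without Tdg-/- line 1. In the last comparison 0 to 1 members were called, and the trend had 2 to 11 calls, the most without wt line 1. Fold changes that changed sign when 1 line was left out ranged, in Tdg+/- against wt, from -0.94 to 0.0466 for Mov10l1 and from -1.87 to 0.13 for Sycp3. In Tdg-/- against wt they ranged from -1.04 to 0.0806 for Mael, from -0.97 to 0.0248 for Mov10l1 and from -0.59 to 0.77 for Tdrd1, each positive without wt line 1. In Tdg-/- against Tdg+/- they ranged from -0.29 to 0.21 for Dazl, from -0.20 to 0.25 for Mov10l1, from -0.37 to 0.091 for Sycp1 and from -0.74 to 0.54 for Sycp3. The slopes of the trend ranged from -0.0071 to 0.32 for Ddx4, from -0.0673 to 0.45 for Mael, from -0.46 to 0.28 for Tdrd1 and from -0.24 to 0.0628 for Hormad1. With the transcript-length offset Dazl was at 0.0051, Mov10l1 at 0.20 and Sycp1 at 0.19 in Tdg-/- against Tdg+/-.

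Replicate numbers in the labels do not pair lines, and same-numbered lines had correlated deviations of -0.09 to 0.17, so the replicate block, which drops Tdg-/- line 4, is an alternative only. Under the replicate block Tdrd1 turned to 0.15 in Tdg-/- against wt and to -0.0434 in the trend. Of 493 fold changes of members under the alternatives, 455 kept their direction and their side of the threshold, 22 changed sign, 6 passed the threshold and 10 no longer did. The cause of these changes was not tested. Asz1 and Tex101 had at most 10 reads in any line and were not tested.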
